A study of Mus musculus with 24 samples.

Results

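The 6 genes described here encode ion channel subunits that set how readily the surface membrane of a skeletal muscle fibre fires. They are Scn4a, Scn4b, Clcn1, Kcnj2, Kcnj11 and Kcna7, chosen by symbol from the 24016 gene symbols of the deposited table, with the transcript of highest mean level kept for each. All 6 were among the 12382 genes that passed the filter on low values. Poly(A) RNA was sequenced from hindlimb muscles of mice of C57BL/6 background on day 7 after unilateral ligation of the femoral artery, in 4 groups of 6 libraries: adductor of control mice, adductor of type 2 diabetic mice, gastrocnemius of control mice and gastrocnemius of diabetic mice. All 4 groups thus share the ligation, and no unoperated muscle was among them. The adductor, where collateral arteries grow, is given in the labels as normoxic and the gastrocnemius, where capillaries grow, as ischemic, so muscle identity and ischemia cannot be told apart. How the mice were made diabetic, their age and whether the libraries of a group came from separate mice are not given in the labels, so p-values measure the spread between these libraries.

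A muscle action potential starts when voltage-gated sodium channels open at the motor endplate, and it then runs along the surface membrane and into the transverse tubules, where a voltage-sensing calcium channel couples it to calcium release. Scn4a encodes Nav1.4, the pore of the adult muscle sodium channel, and Scn4b encodes beta 4, a membrane-spanning accessory subunit of sodium channels. Clcn1 encodes ClC-1, the chloride channel that carries most of the resting conductance of a fibre and damps repeated firing. Kcnj2 encodes Kir2.1, an inward rectifier that holds the resting potential, and Kcnj11 encodes Kir6.2, the pore of the ATP-sensitive potassium channel, which closes when the ATP of the fibre is high. Kcna7 encodes Kv1.7, a voltage-gated potassium channel of the Shaker family. Inherited changes of SCN4A, CLCN1 and KCNJ2 in people cause myotonia or periodic paralysis.

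In the coordinates of mouse build mm9, as the deposited table gives them, Scn4a (NM_133199) lies on the minus strand at chr11:106179907-106210704 and Kcnj2 (NM_008425) on the plus strand of the same chromosome at chr11:110927478-110938139. Kcnj11 (NM_001204411, minus strand, chr7:53352493-53356134) and Kcna7 (NM_010596, plus strand, chr7:52661330-52666752) share chromosome 7. Scn4b (NM_001013390) lies on the plus strand at chr9:44947125-44962144 and Clcn1 (NM_013491) on the plus strand at chr6:42236684-42264655. Levels are RPKM, which divides the reads in exons by exon length in kilobases and by the library total in M reads, so they can be compared between genes per length. No other gene of the table lay within the span of any member, and each transcript was listed with 1 copy in the genome. The shallowest value behind a member was 44 reads, for Clcn1, and the deepest 9911 reads, for Scn4a.

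The 250 bases before the start of 3 of the genes are printed because their transcripts were those that followed each other most closely across libraries (Scn4a and Clcn1) and the one that differed most between the muscles (Scn4b). They are given 5′ to 3′ on the strand of the gene, from RefSeq promoters of build GRCm38.p6 (chr11:106349391-106349640, minus strand, for Scn4a; chr6:42286435-42286684, plus strand, for Clcn1; chr9:45138374-45138623, plus strand, for Scn4b). Capitals mark matches, on either strand, to the E-box CANNTG, which the myogenic factors bind, to its form CAGCTG, to the MEF2 motif and to the SRF CArG box.
Scn4a: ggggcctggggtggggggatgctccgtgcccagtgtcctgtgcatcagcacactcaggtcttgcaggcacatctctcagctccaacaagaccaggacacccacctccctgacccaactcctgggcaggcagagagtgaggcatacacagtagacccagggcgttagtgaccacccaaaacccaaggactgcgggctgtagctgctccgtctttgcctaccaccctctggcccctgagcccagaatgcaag
Clcn1: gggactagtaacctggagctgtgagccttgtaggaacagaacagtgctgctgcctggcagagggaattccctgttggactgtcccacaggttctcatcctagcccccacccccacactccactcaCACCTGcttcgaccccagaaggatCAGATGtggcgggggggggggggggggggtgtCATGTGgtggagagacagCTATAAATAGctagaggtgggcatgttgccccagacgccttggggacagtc
Scn4b: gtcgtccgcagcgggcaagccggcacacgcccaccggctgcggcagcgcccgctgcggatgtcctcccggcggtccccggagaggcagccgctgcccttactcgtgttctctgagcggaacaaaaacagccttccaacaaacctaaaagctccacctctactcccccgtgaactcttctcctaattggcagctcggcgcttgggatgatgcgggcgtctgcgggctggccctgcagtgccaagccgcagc
The Clcn1 window held 3 E-boxes, at bases 125 to 120, 101 to 96 and 69 to 64 before the start, and 1 MEF2 match at bases 51 to 42. The Scn4a and Scn4b windows held none of these letters. Of the 5 members with a promoter in the RefSeq table, Kcnj2 held 2 E-boxes (1 of them CAGCTG) and Kcna7 held 3. Over 32851 mouse promoters of the same length, 66.2% held an E-box, 13.0% held CAGCTG, 2.92% a MEF2 match and 1.47% a CArG box. The GC content was 61.6% for Scn4a, 60% for Clcn1 and 66% for Scn4b, against a median of 52.4% over all promoters. These matches describe letters only, and binding was not measured.

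Before the values, a few facts of the libraries bear on them. The deposited totals ran from 7.13 to 15.6 M reads. Gapdh, a glycolytic enzyme, parted them into sets of which the labels say nothing. Above 100 RPKM lay 14 libraries, called the first set here (in each muscle, numbers 1 to 3 of the control and 1 to 4 of the diabetic mice), and below it lay 10, the second set. The protocol and the design text name different Illumina instruments, and whether the sets follow them was not tested. Separately, control gastrocnemius 3 and diabetic gastrocnemius 2 stood apart from the other gastrocnemius libraries in muscle fibre genes. The mean log2 level of 12 fibre genes (such as Acta1, Ckm and Myh4) lay 0.02 and 0.01 above the mean of the adductor libraries of the same set (control and diabetic together) in these libraries, while in the other 10 it lay between -0.77 and -2.01. Both muscles carried these fibre genes at high levels, with sums of 55117 to 124910 RPKM in the adductor and 19712 to 77090 RPKM in the gastrocnemius.

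**Figure D1:**
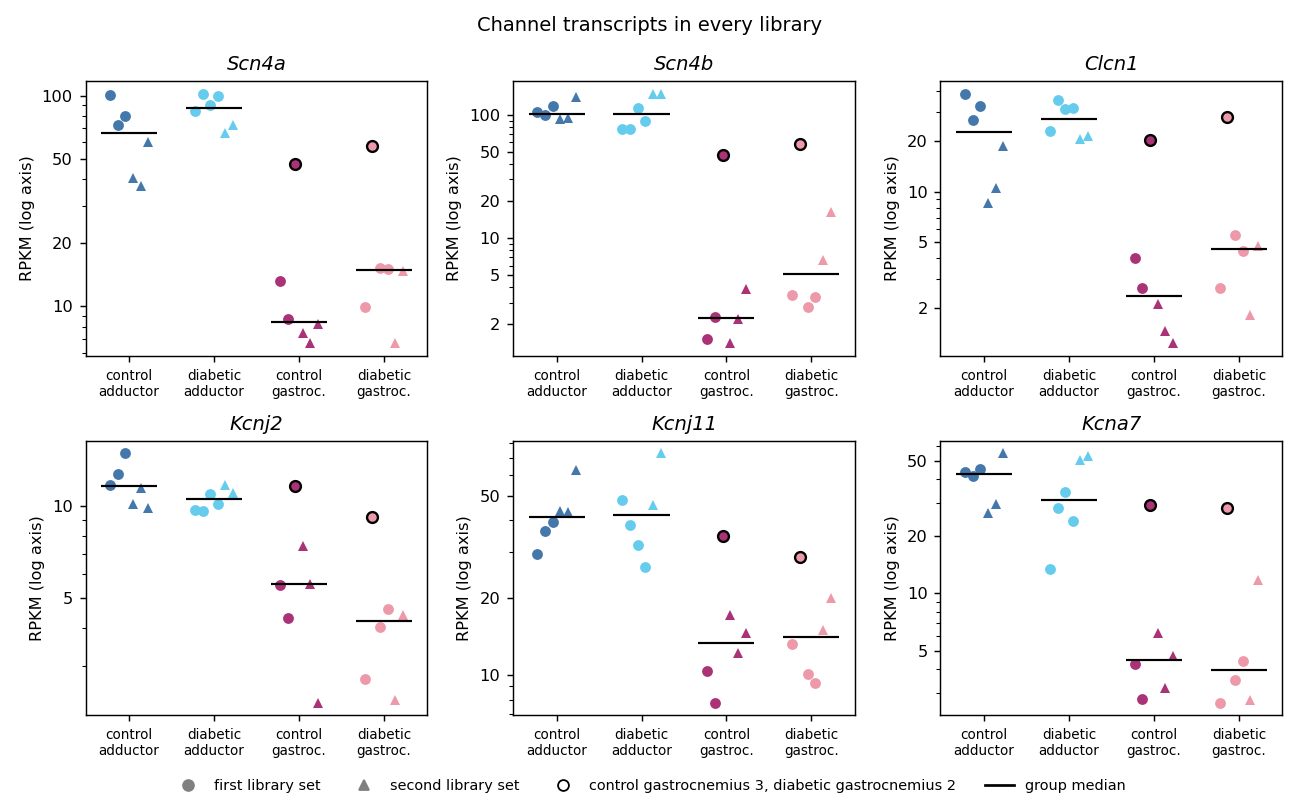
RPKM (log axis) of each channel gene in every library of the 4 groups, with circles for the first library set, triangles for the second, a bar at the group median and a black ring around control gastrocnemius 3 and diabetic gastrocnemius 2. The ringed points lie above the other gastrocnemius points in all 6 panels, and Scn4b spans the widest range, from 1.40 to 148.91 RPKM.

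All 6 channel transcripts were lower in the ischemic gastrocnemius than in the normoxic adductor, in control and in diabetic mice. Scn4b had the largest difference of the 6 in both mouse groups, a log2 difference of -4.66 ± 0.66 (SE) in control and -3.65 ± 0.66 in diabetic mice. Kcnj2 had the smallest, -1.03 ± 0.27 and -1.25 ± 0.27. At an adjusted threshold of 0.05 in limma, fitted over all tested genes, 6 of 6 were called lower in each mouse group, where the background was 8.7% of all genes called lower and 54.4% called higher in control mice, and 8.83% and 48.1% in diabetic mice. The median over the 6 genes was -2.40 in control and -2.27 in diabetic mice, beside medians of 0.66 and 0.55 over all tested genes. In whole muscle, fewer fibres and less RNA per fibre cannot be told apart.

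Scn4a, the sodium channel pore, ranged in the control adductor from 37.3 to 100.9 RPKM with a median of 66.4, and in the diabetic adductor from 66.7 to 102.2 with a median of 87.2. In the control gastrocnemius it ranged from 6.67 to 47.6 RPKM with a median of 8.44, and in the diabetic gastrocnemius from 6.72 to 57.7 with a median of 14.9. All diabetic gastrocnemius libraries lay below all diabetic adductor libraries, and in control mice 5 of 6 did, the exception being control gastrocnemius 3. The group means were 65.2 ± 24.2 (SD, n = 6) and 15.3 ± 16.0 RPKM in control mice, a 4.26-fold lower mean, and 85.9 ± 14.4 and 19.9 ± 18.8 in diabetic mice, 4.32-fold lower. The log2 differences were -2.37 ± 0.43 (SE, limma adjusted p = 4.84e-05) and -2.42 ± 0.43 (adjusted p = 4.43e-05). The folds between means rest partly on the libraries that stood apart: without them the gastrocnemius means were 8.84 ± 2.56 RPKM (n = 5) in control and 12.3 ± 3.81 (n = 5) in diabetic mice. Within the control adductor the levels followed the library sets, with a mean of 84.3 RPKM in the first set and 46.2 in the second.

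Scn4b, the accessory subunit, had the highest mean RPKM of the 6 in both adductor groups and ranged there from 92.1 to 139.8 RPKM (median 102.4) in control and from 76.6 to 148.9 (median 102.2) in diabetic mice. In the gastrocnemius it ranged from 1.40 to 47.7 RPKM (median 2.24) in control and from 2.77 to 58.6 (median 5.09) in diabetic mice. It was the only one of the 6 whose gastrocnemius libraries all lay below every adductor library in both mouse groups, control gastrocnemius 3 and diabetic gastrocnemius 2 included. Of all tested genes, 3% had such groups in control mice and 2.33% in diabetic mice. The mean was 11.0-fold lower in control mice (108.5 ± 18.1 against 9.82 ± 18.6, SD, n = 6) and 7.17-fold lower in diabetic mice (109.0 ± 33.2 against 15.2 ± 21.8). The limma adjusted p was 2.34e-06 in control and 5.68e-05 in diabetic mice. Without the libraries that stood apart, the gastrocnemius means were 2.25 ± 0.987 RPKM over the 5 control libraries and 6.51 ± 5.68 over the 5 diabetic libraries.

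The balance between these sodium channel transcripts was also set side by side. The RPKM ratio of Scn4b to Scn4a had a median of 1.88 in the control adductor (1.05 to 2.54) and of 0.296 in the control gastrocnemius (0.114 to 1), and these ranges did not overlap. In diabetic mice the medians were 1.09 (0.749 to 2.20) and 0.674 (0.182 to 1.10), and the ranges overlapped. The adductor ratio split by library set, from 1.05 to 1.49 in the first and 2.27 to 2.54 in the second set of control mice, and from 0.749 to 1.27 and 2.06 to 2.20 in diabetic mice. In the second set of diabetic mice the gastrocnemius ratios, 0.995 and 1.10, lay below both adductor ratios, and in the first set the overlap came from diabetic gastrocnemius 2, at 1.01. The ratio was not tested.

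Clcn1, the chloride channel, ranged from 8.49 to 38.7 RPKM (median 22.8) in the control adductor and from 20.7 to 35.3 (median 27.2) in the diabetic adductor. It ranged from 1.23 to 20.4 RPKM (median 2.38) in the control gastrocnemius and from 1.84 to 28.1 (median 4.56) in the diabetic gastrocnemius. In each mouse group 5 of 6 gastrocnemius libraries lay below all adductor libraries, the exceptions being control gastrocnemius 3 and diabetic gastrocnemius 2. The mean was 4.26-fold lower in control and 3.47-fold lower in diabetic mice, with log2 differences of -2.44 ± 0.55 (SE, limma adjusted p = 0.000493) and -2.27 ± 0.55 (adjusted p = 0.00116). Without control gastrocnemius 3 the control gastrocnemius mean was 2.29 ± 1.11 RPKM (n = 5) in place of 5.31 ± 7.47, and without diabetic gastrocnemius 2 the diabetic mean was 3.82 ± 1.51 (n = 5) in place of 7.86 ± 10.0. As for Scn4a, the control adductor split by set, with means of 32.7 RPKM in the first and 12.6 in the second. The ratio of Clcn1 to Scn4a had medians of 0.341, 0.314, 0.293 and 0.306 in the control adductor, diabetic adductor, control gastrocnemius and diabetic gastrocnemius, and a full range of 0.15 to 0.487. In the control adductor it also parted by set, from 0.371 to 0.408 in the first and from 0.209 to 0.311 in the second. This ratio was not tested.

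Kcnj2, the inward rectifier, was the least abundant member in the adductor by mean and had the narrowest range of RPKM there, from 9.88 to 15.0 RPKM (median 11.7) in control and from 9.67 to 11.7 (median 10.6) in diabetic mice. In the gastrocnemius it ranged from 2.27 to 11.6 RPKM (median 5.55) in control and from 2.32 to 9.21 (median 4.21) in diabetic mice. All diabetic gastrocnemius libraries lay below all diabetic adductor libraries, and in control mice 5 of 6 did. The mean was 1.94-fold lower in control mice (limma adjusted p = 0.00226) and 2.33-fold lower in diabetic mice (adjusted p = 0.000445).

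Kcnj11, the pore of the ATP-sensitive channel, ranged from 29.6 to 62.7 RPKM (median 41.4) in the control adductor and from 26.2 to 73.2 (median 42.1) in the diabetic adductor. It ranged from 7.76 to 34.6 RPKM (median 13.4) in the control gastrocnemius and from 9.27 to 28.8 (median 14.0) in the diabetic gastrocnemius. In each mouse group 5 of 6 gastrocnemius libraries lay below all adductor libraries. The log2 differences were -1.50 ± 0.31 (SE, limma adjusted p = 0.000219) in control and -1.46 ± 0.31 (adjusted p = 0.000356) in diabetic mice, or means 2.64-fold and 2.74-fold lower. In the control adductor the second set was higher than the first for this gene, 49.9 against 35.2 RPKM, the reverse of Scn4a and Clcn1.

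Kcna7, the voltage-gated potassium channel, ranged from 26.4 to 54.9 RPKM (median 42.5) in the control adductor and from 13.5 to 52.7 (median 31.1) in the diabetic adductor. It ranged from 2.79 to 29.1 RPKM (median 4.47) in the control gastrocnemius and from 2.65 to 28.2 (median 3.94) in the diabetic gastrocnemius. Here too 5 of 6 gastrocnemius libraries in each mouse group lay below all adductor libraries. The log2 differences were -2.66 ± 0.52 (SE, limma adjusted p = 0.000105) in control and -2.28 ± 0.52 (adjusted p = 0.000622) in diabetic mice, the second largest of the 6 in control mice, with means 4.80-fold and 3.81-fold lower. Without the libraries that stood apart the gastrocnemius means were 4.21 ± 1.34 RPKM (n = 5) in place of 8.37 ± 10.3 in control mice and 5.02 ± 3.88 (n = 5) in place of 8.89 ± 10.1 in diabetic mice.

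By group mean RPKM the order in both adductor groups was Scn4b, Scn4a, Kcnj11, Kcna7, Clcn1 and Kcnj2. In the gastrocnemius Kcnj11 led in control mice and Scn4a in diabetic mice, and Scn4b came after both. Neighbours in these orders overlapped in range everywhere except Clcn1 above Kcnj2 in the diabetic adductor. The order of neighbours was held in 6 of 6 libraries for Scn4b above Scn4a and for Kcna7 above Clcn1 in the control adductor, while Kcnj11 was above Kcna7 in only 3 of 6 there. In the diabetic adductor Scn4b was above Scn4a in 3 of 6 libraries, with first-set means of 89.5 RPKM for Scn4b and 94.1 for Scn4a and second-set means of 147.9 and 69.5. The gastrocnemius orders rest partly on the libraries that stood apart. In the control gastrocnemius Scn4b was above Kcna7, the next by mean, in 1 of 6 libraries. Without control gastrocnemius 3 its mean, 2.25 RPKM, was the lowest of the 6, below Clcn1 at 2.29. Without diabetic gastrocnemius 2 Kcnj11 led in diabetic mice too, at 13.5 RPKM against 12.3 for Scn4a.

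**Figure D2:**
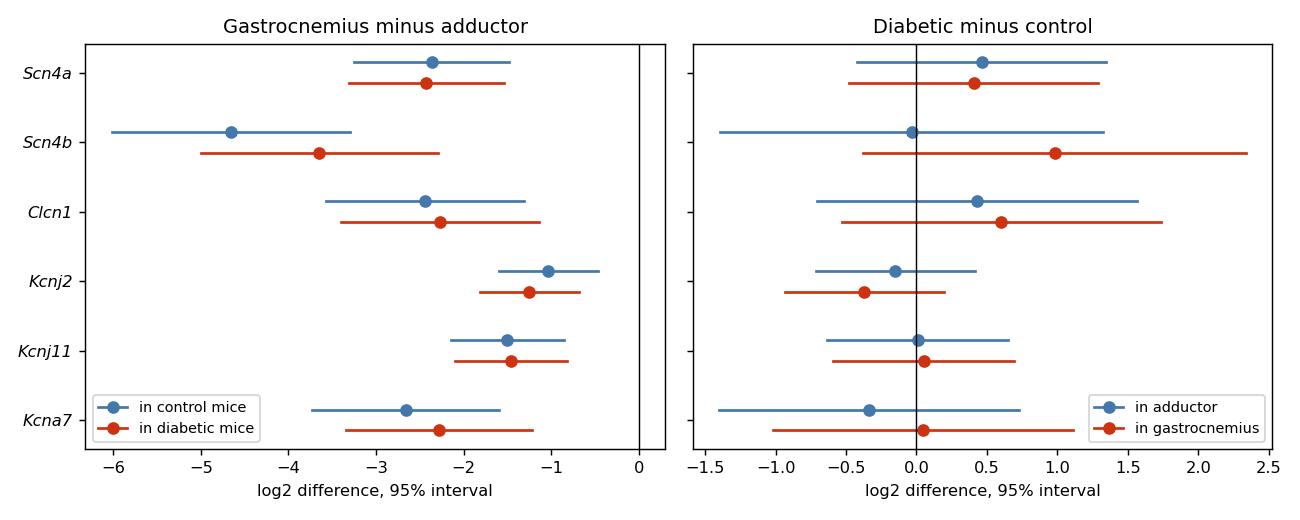
Log2 difference of each channel gene in both muscle contrasts and both diabetes contrasts, with 95% confidence intervals from limma over 24 libraries. Both muscle contrasts lie below 0 for all 6 genes, from -1.03 for Kcnj2 to -4.66 for Scn4b in control mice, while every interval of the diabetes contrasts spans 0.

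The direction and the call of all 6 genes held in both muscle contrasts within each library set alone. In the first set the control differences ran from -0.95 (Kcnj2) to -4.07 (Scn4b), and in the second from -1.11 (Kcnj2) to -5.25 (Scn4b). Without control gastrocnemius 3 and diabetic gastrocnemius 2 all 6 were again called lower in each mouse group, at a background of 9.63% and 10.1% of genes called lower. The differences were then -5.36 and -4.21 for Scn4b, -2.77 and -2.80 for Scn4a, -2.94 and -2.74 for Clcn1, -3.11 and -2.71 for Kcna7, -1.75 and -1.64 for Kcnj11, and -1.23 and -1.47 for Kcnj2, in control and diabetic mice. RPKM shares 1 total among all genes, and with median-of-ratios scaling the median over all genes moved from 0.66 to -0.02 in control and from 0.55 to -0.04 in diabetic mice. The share of genes called lower was then 26.5% and 26.2%, and called higher 28.4% and 27.4%, and all 6 members were again called lower, from -1.77 for Kcnj2 to -5.37 for Scn4b in control mice.

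Some fibre genes were lower in the gastrocnemius too, so the members were also set against them. Of the 12 fibre genes, 7 were called lower and 0 higher in control mice, with a median of -1.38, and 5 and 0 in diabetic mice, with a median of -0.92. Relative to the mean of these 12 genes, Scn4b remained lower by a log2 difference of -3.35 in control and -2.79 in diabetic mice (limma adjusted p = 4e-06 and 7.6e-05), Kcna7 by -1.35 and -1.43, and Scn4a by -1.06 and -1.57. Clcn1 was called in diabetic mice (-1.42) but not in control mice (-1.13, adjusted p = 0.061), and so was Kcnj11 (-0.61 against -0.19, adjusted p = 0.465). Kcnj2 was called in neither, at 0.28 in control and -0.40 in diabetic mice. The count was thus 3 of 6 lower in control and 5 of 6 in diabetic mice, at a background of 0.872% and 1.24% of genes called lower on that scale. Most genes moved up on it: 10845 of 12382 were called higher in control and 8544 in diabetic mice. The medians over all tested genes were 1.972 and 1.405. Without the libraries that stood apart the count of members was 4 of 6, Clcn1 now included at -1.44 (limma adjusted p = 0.017), and 5 of 6. The background was then 0.945% and 1.39% called lower, with 10991 and 9286 genes called higher. These values give the change beyond that of the 12 fibre genes and say nothing of the absolute level or of the number of fibres. The 12 hold fast-fibre genes such as Myh4 and Myh1 and no gene of the slow fibre list. Slow fibre sums ran from 225 to 741 RPKM in the control adductor and from 901 to 1756 in the control gastrocnemius. In diabetic mice they ran from 463 to 1126 and from 941 to 2023. By gene, 4 of 8 slow fibre genes were called higher and 3 lower in control mice.

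**Figure D3:**
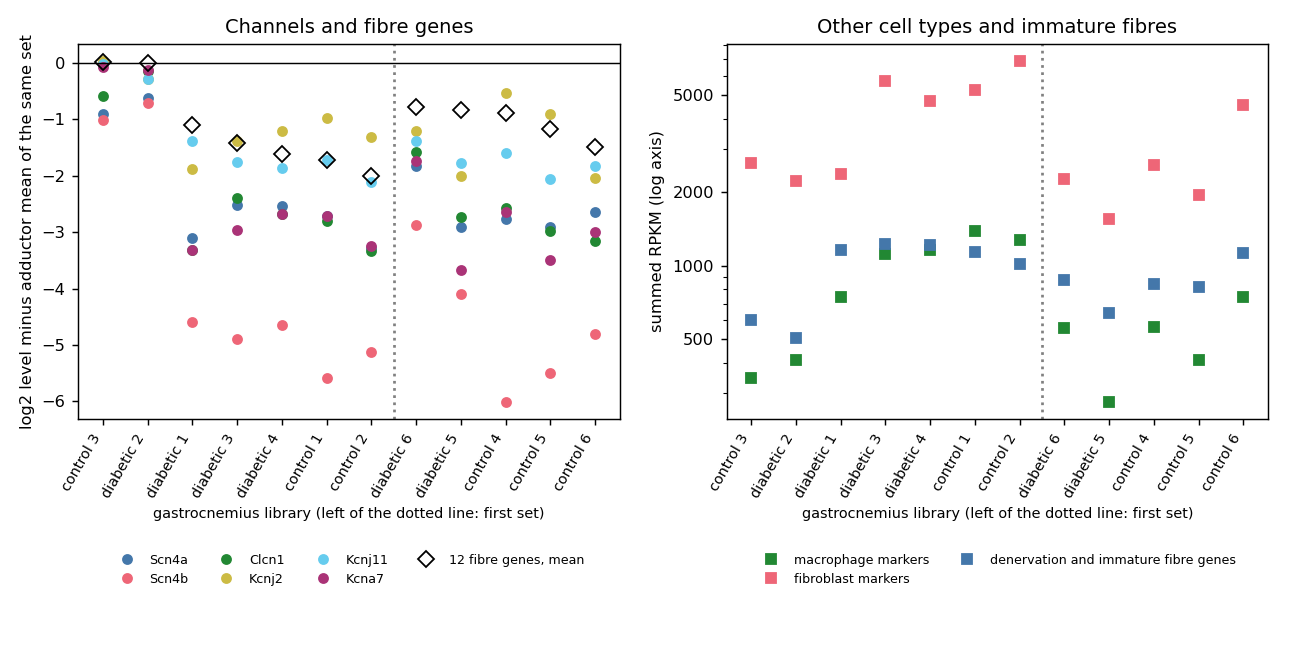
Left, log2 level of each channel gene and of the mean of 12 fibre genes (diamonds) in each gastrocnemius library, minus the mean of the adductor libraries of the same set (control and diabetic together); right, summed RPKM (log axis) of macrophage, fibroblast, and denervation and immature fibre genes in the same libraries, ordered by the fibre mean within each set. Control 3 and diabetic 2 have fibre genes at 0.02 and 0.01. Every channel gene except Kcnj2 lies below the fibre mean in all 12 libraries, Kcnj11 only barely in control 1 (-1.718 against -1.713).

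The gastrocnemius libraries also differed in how far each channel lay below the adductor. In control gastrocnemius 3 the fibre genes were level with the adductor mean of the same set, and Kcnj2, Kcnj11 and Kcna7 lay within 0.07 of theirs (0.04, -0.02 and -0.07 on the log2 scale). Scn4b and Scn4a in that library were at -1.004 and -0.90, and Clcn1 at -0.59. In diabetic gastrocnemius 2 Scn4b was at -0.71 and Scn4a at -0.62, followed by Kcnj2 and Kcnj11 at -0.28, Clcn1 at -0.14 and Kcna7 at -0.12, so that Kcnj2 and Kcnj11 lay below Clcn1 there. In the other 10 libraries Scn4b ran from -2.86 to -6.00 and Kcnj2 from -0.53 to -2.04.

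Markers of other cell types were counted against the 54.4% of all tested genes called higher in control and 48.1% in diabetic mice. Of 7 measured macrophage markers 7 were called higher in the gastrocnemius in each mouse group, and of 8 fibroblast markers 8 were. With median-of-ratios scaling these counts were 7 and 7 in control and 6 and 6 in diabetic mice. The summed macrophage level ran from 25.6 to 224 RPKM in the control adductor and from 346 to 1391 in the control gastrocnemius, and from 43.4 to 92.6 and from 278 to 1158 in diabetic mice. The fibroblast sums ran from 191 to 1041 and from 1956 to 6894 RPKM in control mice, and from 242 to 498 and from 1551 to 5697 in diabetic mice. Control gastrocnemius 3 had a macrophage sum of 346 RPKM, the lowest of its group, and a fibroblast sum of 2627, the fourth highest of 6. Diabetic gastrocnemius 2 had sums of 410 and 2232, the second lowest of its group for both. Counts for the other types lay nearer to the share over all genes or below it. Endothelial markers were called higher for 5 of 8 in control mice, though for 1 of 8 with median-of-ratios scaling, and 4 of 7 tested Schwann cell markers were called higher, 1 of 7 with that scaling. Of 8 smooth muscle and pericyte markers 5 were called higher and 2 lower in control mice, and of 8 adipocyte markers 0 and 1. None of the measured markers was at 0 in any library. Their part in the channel differences was not tested.

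The other subunits of these channels did not all go the same way, as the counts of the fixed lists below give for control mice. Over all tested genes, 54.4% were called higher and 8.7% lower there, or 28.4% and 26.5% with median-of-ratios scaling. Of 4 tested sodium channel subunits, 3 were called higher in the gastrocnemius and 1 lower. Scn7a, which encodes a sodium-sensing channel, was higher by a log2 difference of 1.76 ± 0.30 (SE), from a mean of 1.39 to 6.16 RPKM. The mean of Scn4a there was 15.3 RPKM, but 8.84 without control gastrocnemius 3. Scn3b, another accessory subunit, was higher by 1.21, from 0.291 to 1.33 RPKM.

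Of 21 tested potassium channel subunits, 8 were called higher and 9 lower, and with median-of-ratios scaling 6 and 12. Kcnj12, which encodes Kir2.2, an inward rectifier close to Kir2.1, was lower by -1.97 ± 0.30 (18.1 to 4.60 RPKM), against -1.03 for Kcnj2. Kcnk13 and Kcnk6, of the tandem-pore-domain leak family, were higher by 2.29 and 1.95, and Kcnn4, a calcium-activated channel, by 2.5. Kcnn3, the apamin-sensitive SK3 channel that denervated muscle makes, was higher by 1.3 (0.392 to 1.73 RPKM). Other subunits of ATP-sensitive channels were also looked at. Abcc9, the SUR2 subunit of the muscle channel, was at -0.65 (28.0 to 18.5 RPKM, limma adjusted p = 0.054) in control mice and was called in diabetic mice at -0.98. Kcnj8, the Kir6.1 pore found mainly in vessels, was at 0.05 (adjusted p = 0.863), but with median-of-ratios scaling at -0.67 and called lower. Abcc8, the SUR1 subunit, was not tested, with at most 1.85 RPKM in any library.

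The lists for chloride channels and for proteins around the channels gave mixed counts. Of 9 tested chloride channels, 4 were called higher and 2 lower, but 1 and 4 with median-of-ratios scaling. Clcn3, an intracellular exchanger, was lower by -0.97, and Clcn5, an endosomal exchanger, was higher by 1.77. Ano6, a scramblase and channel, and Clcn7, a lysosomal exchanger, were higher by 0.80 and 1.02, but were not called with that scaling. Of 9 genes listed by name for the sodium potassium pump, which restores the ion gradients after firing, 5 were called higher and 1 lower (5 and 4 with that scaling). Without that scaling the share called higher was near the 54.4% of all tested genes. The list was led by Atp1b4 (3.67), Fxyd5 (3.22) and Atp1b3 (1.81), and whether each product works in the pump was not measured. Of 11 anchoring proteins 2 were called higher and 2 lower, and 0 and 8 with median-of-ratios scaling. Cav3, the muscle caveolin, and Sntb2, a syntrophin, were higher by 1.76 and 1.24, called without that scaling only, while Dlg1 and Ank1 were lower by -0.55 and -0.74. Of 4 tested Clcn1 splicing regulators 1 was called, Mbnl1, a splicing factor that promotes the adult splicing of Clcn1, lower by -0.87 (88.5 to 47.8 RPKM), and 3 of 4 were called lower with median-of-ratios scaling.

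Genes of the transverse tubule calcium release unit went down with the 6 members. Of 10, 8 were called lower and 0 higher, with a median of -1.19. Cacna1s, the voltage sensor, was lower by -1.50 ± 0.35 (158.8 to 60.9 RPKM, limma adjusted p = 0.000744), the junctophilins Jph1 and Jph2, which tie the tubule to the calcium store, by -1.64 and -1.29, and Stac3, which binds the voltage sensor, by -1.05. In the other direction, 10 of 12 genes of denervated and immature fibres were called higher and 0 lower, with a median of 3.92. Myh8, the perinatal myosin, was higher by 5.46, Chrng and Chrnd, the fetal gamma and the delta subunit of the acetylcholine receptor, by 5.29 and 3.65, and Myog, a myogenic factor, by 4.97. The summed level of this list ran from 48.8 to 136 RPKM in the control adductor and from 599.5 to 1143.5 in the control gastrocnemius, with control gastrocnemius 3 at the lower end. Innervation was not measured. Of 8 slow fibre genes 4 were called higher and 3 lower.

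In diabetic mice 48.1% of all tested genes were called higher and 8.83% lower (27.4% and 26.2% with median-of-ratios scaling). The counts of higher and lower calls there were 3 and 0 for the sodium channel subunits and 7 and 9 for the potassium channel subunits. They were 4 and 1 for the chloride channels, 5 and 1 for the pump list and 3 and 1 for the anchoring proteins. For the calcium release genes they were 0 and 8, and for the genes of denervated and immature fibres 10 and 0. With median-of-ratios scaling these were 3 and 1, 6 and 11, 1 and 3, 5 and 3, 1 and 8, 0 and 8, and 9 and 0, so most called anchoring proteins and chloride channels were then lower. Without the libraries that stood apart they were 3 and 1, 7 and 10, 4 and 1, 5 and 1, 1 and 2, 0 and 8, and 10 and 0. Without control gastrocnemius 3 and diabetic gastrocnemius 2 the control counts were 8 and 11 for potassium channel subunits, 5 and 2 for the pump, 2 and 3 for anchoring proteins, 1 and 1 for Clcn1 splicing regulators, 4 and 4 for slow fibre genes and 11 and 0 for denervated and immature fibres, and those of the sodium channel, chloride channel and calcium release lists did not change.

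**Figure D4:**
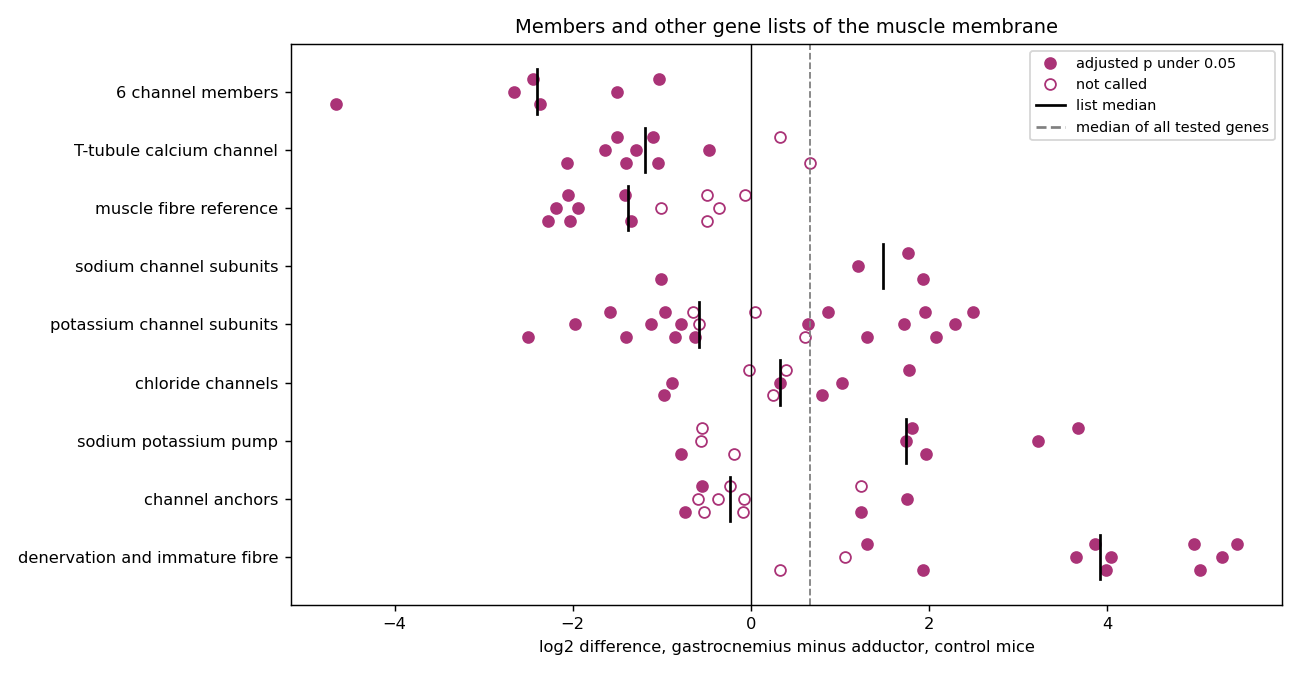
Log2 difference between gastrocnemius and adductor in control mice for every tested gene of each list, with filled points for genes called by limma at an adjusted threshold of 0.05 and open points for the rest. Black bars mark list medians and the dashed line the median of all tested genes (0.66); the 6 members and the 8 called calcium release genes lie to the left of 0, the genes of denervated and immature fibres to the right, and called sodium, potassium and chloride channel subunits on both sides.

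Diabetes gave no called difference in any of the 6 channels. In the adductor the log2 differences (diabetic minus control) were 0.46 for Scn4a (95% interval -0.42 to 1.35), 0.43 for Clcn1 (-0.70 to 1.56), 0.01 for Kcnj11 (-0.64 to 0.65), -0.03 for Scn4b (-1.39 to 1.33), -0.15 for Kcnj2 (-0.71 to 0.42) and -0.34 for Kcna7 (-1.40 to 0.73). In limma 0.0323% of all genes, 4 of 12382, were called in this contrast, and 339 genes had an unadjusted p under 0.05, none of the 6 among them. The intervals are narrowest for Kcnj2 and widest for Scn4b, for which a difference of more than 2-fold in either direction cannot be told from none.

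In the gastrocnemius the differences were 0.98 for Scn4b (-0.38 to 2.34), 0.60 for Clcn1 (-0.53 to 1.73), 0.41 for Scn4a (-0.48 to 1.29), 0.05 for Kcnj11 (-0.59 to 0.69), 0.04 for Kcna7 (-1.02 to 1.11) and -0.37 for Kcnj2 (-0.94 to 0.20). Here 0.00808% of all genes, 1 of 12382, were called, and 156 had an unadjusted p under 0.05, again none of the 6 among them. The smallest unadjusted p of a member was 0.149, for Scn4b, whose adjusted p in limma was 0.999. The gastrocnemius values depended on single libraries. Without diabetic gastrocnemius 2 they were 0.42 for Scn4b, 0.13 for Clcn1, 0.03 for Scn4a, -0.14 for Kcnj11, -0.39 for Kcna7 and -0.58 for Kcnj2, and without control gastrocnemius 3 they were 1.68, 1.10, 0.81, 0.30, 0.49 and -0.17. No gene of any list was called in either diabetes contrast.

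Several of the diabetes values moved with the library set, and the sets were unequally filled, with 4 diabetic against 3 control libraries per muscle in the first and 2 against 3 in the second. For Scn4b the gastrocnemius difference was 0.19 in the first set and 1.96 in the second (limma adjusted p = 0.157), where the diabetic libraries were at 6.68 and 16.3 RPKM and the control libraries at 1.40, 2.20 and 3.87. In the adductor Kcna7 was at -0.86 in the first set and 0.55 in the second, and Clcn1 at -0.10 and 0.80. Scn4a was positive in both sets and both muscles, from 0.10 to 0.62, and Kcnj2 was at -0.45 in both sets of the gastrocnemius. None of these was called.

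Whether diabetes acted differently in the muscles was tested as a difference of the diabetes effects (gastrocnemius minus adductor). It was 1.01 ± 0.93 (SE) for Scn4b, 0.38 ± 0.73 for Kcna7, 0.17 ± 0.78 for Clcn1, 0.04 ± 0.44 for Kcnj11, -0.06 ± 0.61 for Scn4a and -0.22 ± 0.39 for Kcnj2. In limma 0% of genes were called, with 154 at an unadjusted p under 0.05 and no member among them. The same test is that of the muscle difference between mouse groups, so the larger Scn4b difference in control mice was not shown to differ from that in diabetic mice.

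The members followed each other to different degrees, given here as Pearson's r of log2 levels with no test, since libraries of a group share muscle, condition and set. Scn4a and Clcn1 were closest, with r = 0.985 over 24 libraries and 0.972 and 0.986 for the deviations from the group means over the 12 adductor and 12 gastrocnemius libraries. Scn4b and Kcna7 gave 0.950, 0.887 and 0.914. Scn4a and Scn4b gave 0.928 over all libraries, but -0.12 for the deviations in the adductor against 0.827 in the gastrocnemius. Scn4a and Kcnj11 gave -0.506 in the adductor. Within the adductor, deviations of Scn4a thus had a higher r with those of Clcn1 than with those of Scn4b, but these values hold the set difference. In the control adductor, first-set and second-set means were 84.3 and 46.2 RPKM for Scn4a, 32.7 and 12.6 for Clcn1, and 108 and 108.9 for Scn4b. In the diabetic adductor they were 94.1 and 69.5 for Scn4a, 30.4 and 21.05 for Clcn1, and 89.5 and 147.9 for Scn4b. Whether the members followed each other within a set was not tested. The gastrocnemius values hold the libraries that stood apart.

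Among all other tested genes, the 3 of most similar pattern to each member were found by r over 24 libraries. They were Nrd1, Prkar2a and Ppip5k1 for Scn4a (r of 0.982 to 0.984), and Fbxo40, Cacna1s and Prkar2a for Clcn1 (0.982 to 0.986), so Prkar2a, a regulatory subunit of protein kinase A, stood in both. For Scn4b they were Plcd4, Osbpl6 and the fast myosin binding protein Mybpc2 (0.979 to 0.984), and for Kcna7 they were St3gal6, Slc25a12 and Me3 (0.982 to 0.988). For Kcnj11 they were Adssl1, Stac3 and Tspan8 (0.967 to 0.969). For Kcnj2 they were Aqp1, Ptpn3 and Myh4, at lower values of 0.911 to 0.926. For deviations from the group means the same genes gave 0.949 to 0.980 for the partners of Scn4a and Clcn1, 0.926 to 0.937 for those of Scn4b, and 0.782 to 0.851 for those of Kcnj2.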

How the data were processed

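Poly(A) RNA-seq of 24 mouse muscle libraries was deposited as 1 table. Per the file headers, the authors gave RPKM over the exons of 33022 RefSeq transcripts of mm9, computed with HOMER; the submitters' processing notes list TopHat, HOMER and mm9 without versions, and the header command shows no strand option. RPKM times length and library total gave whole reads within 0.01 for 99.96% of values. All 24 columns matched a sample title, and 0 other sample columns were present.

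From these values, the highest-mean transcript per symbol was kept, and genes with at least 1 RPKM in at least 6 libraries (12382) were tested as log2(RPKM + 0.5) in limma 3.58.1 (R 4.3.3), 1 mean for each of 4 groups and an intensity trend in the variance. P-values were adjusted by Benjamini-Hochberg within each of 5 contrasts and called at 0.05. Fold changes on this scale understate those of low genes. The script was tested on simulated data. Alternatives were another pseudocount (1), no filter, median-of-ratios scaling, scaling to 12 fibre genes, library set terms, each set alone, a replicate block, voom on recovered reads, the other Kcnj11 transcript and leaving out each library. Leaving out the 2 gastrocnemius libraries that stood apart was chosen after seeing the data. The members and lists were chosen with earlier results of these data known. Named from each list were up to 4 called genes with the smallest p in the control muscle contrast, plus Abcc8, Abcc9, Kcnj8, Kcnj12, Kcnn3 and Cacna1s, and for each member the 3 genes with the highest r. Some genes that this rule names are not reported here.

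Over 60 pairs of libraries within groups, the chi-square of recovered reads divided by its degrees of freedom lay between 8.97 and 269, and no pair was merged. Adductor and gastrocnemius libraries of 1 number had correlated deviations in both mouse groups (r across genes of 0.254 to 0.736, 12 of 12 pairs over 0.1), though r was -0.0901 to 0.627 within the sets. The labels do not tie numbers to animals, so the pairing comes from the data.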

Additional observations from a re-analysis of the deposited data

Results flagged for a closer look

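Within groups of 6 libraries, the gap of the highest or lowest value to the next, divided by the range of the group, was compared with Dixon's 95% critical value for each of the 6 genes in each of 4 groups. Chance flags about 1 in 20 groups where values are normal and groups independent. Here 10 of 24 were flagged, all in the gastrocnemius and all at the same libraries. The values were RPKM without logs, and the 6 genes share their libraries and followed each other, so this count cannot be weighed against that rate. Control gastrocnemius 3 was far above the other control gastrocnemius libraries for Scn4a (47.58 RPKM), Scn4b (47.68), Clcn1 (20.42), Kcnj11 (34.62) and Kcna7 (29.14). Diabetic gastrocnemius 2 was far above the other diabetic gastrocnemius libraries for Scn4a (57.7 RPKM), Scn4b (58.56), Clcn1 (28.08), Kcnj2 (9.209) and Kcna7 (28.22). The same libraries had the lowest summed denervation and immature fibre genes of their groups (599.5 and 505 RPKM). The part of tissue composition in these values was not tested.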

How the results depend on the processing

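All 6 members were called lower in both muscle contrasts with a pseudocount of 1, no filter, median-of-ratios scaling, library set terms, each set alone, the replicate block, voom on recovered reads, without the 2 libraries that stood apart and in each of 24 fits that left out 1 library; relative to fibre genes, which were themselves lower, the control count was 3 in place of 6. No member was called in a diabetes contrast or in the difference of effects in any of these fits. With the replicate block Scn4b stayed at -4.66 in control mice, and the block changed no call of a member. In voom the control muscle contrast gave 6771 higher and 1068 lower genes. Same-numbered control and diabetic libraries had r from -0.659 to 0.822, with 9 of 12 over 0.1, and were not taken as pairs in the main fit. The negative values, -0.619 and -0.659, belong to number 4, whose control and diabetic libraries are of different sets, while libraries of each other number share a set. For the diabetes contrasts the replicate block used the number alone, and so joined control and diabetic libraries of 1 number, number 4 included.

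The sign of some member values changed as follows. All of these values were uncalled in the main fit, except the control muscle difference of Kcnj2. That difference was called lower in the main fit but was positive and not called relative to fibre genes. Relative to fibre genes, the adductor diabetes difference was 0.254 for Scn4b and 0.138 for Kcnj2, the gastrocnemius one -0.118 for Kcnj11 and -0.125 for Kcna7, the control muscle difference 0.276 for Kcnj2, and the difference of effects -0.283 for Clcn1, -0.413 for Kcnj11 and -0.0757 for Kcna7. Relative to fibre genes and without the 2 libraries, these were 0.254, 0.138, -0.0921, -0.144, 0.268, -0.290, -0.387 and -0.0944. With set terms, Scn4b was 0.0242 in the adductor, Kcna7 -0.0135 in the gastrocnemius and Kcnj11 -0.0277 in the difference. In the first set, Clcn1 was -0.105 in the adductor, Kcnj11 -0.0390 and Kcna7 -0.256 in the gastrocnemius, and Kcnj11 -0.0547 in the difference. In the second set, Scn4b was 0.466, Kcnj2 0.113 and Kcna7 0.554 in the adductor, and Clcn1 -0.0437 and Kcna7 -0.221 in the difference. With median-of-ratios scaling, Kcnj11 was -0.0466 in the adductor and Scn4a 0.0517 in the difference. Leaving out 1 library at a time, the adductor values ran from -0.134 to 0.0571 for Scn4b and from -0.153 to 0.139 for Kcnj11, the gastrocnemius values from -0.136 to 0.300 for Kcnj11 and from -0.388 to 0.494 for Kcna7, and the differences of effects from -0.433 to 0.342 for Scn4a, from -0.296 to 0.671 for Clcn1, from -0.144 to 0.292 for Kcnj11 and from -0.0515 to 0.830 for Kcna7. The cause was not tested.

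The lowest member value rested on 44 reads; how depth, the number of libraries and the sets each bear on the diabetes intervals was not tested.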
